A study of Rattus norvegicus with 9 samples.

Results

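Glycolysis enzyme transcripts were followed through 8 genes, Gpi, Pfkl, Tpi1, Pgk1, Pgam1, Eno1, Pklr and Ldha, in whole rat liver. They were chosen by gene symbol: every probe set, a group of short array probes that reads 1 transcript, whose platform annotation named 1 of these genes was taken, and control probe sets were left out. This gave 11 probe sets of 15866, and 8 of the 10411 genes named on the array. RNA was measured on 9 arrays in 3 groups of 3, which the titles call Burn-CLP, Sham-CLP and Sham-Sham. CLP is commonly short for cecal ligation and puncture, an abdominal operation that causes sepsis, and a sham operation is the same procedure without the injury. The labels do not spell out these terms. As the names read, Burn-CLP livers had a burn and CLP, Sham-CLP livers a sham in place of the burn and then CLP, and Sham-Sham livers a sham for both. Strain, sex, age, burn size, the interval between procedures and the time of sampling are not given in the sources used here. Nothing says whether the 3 arrays of each group stand for 3 animals, pools or 1 RNA, so p-values reflect the spread among arrays and that spread may be technical.

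Glycolysis splits glucose into pyruvate in the cytosol and yields ATP without oxygen, and lactate dehydrogenase turns the pyruvate into lactate. The liver runs the pathway in both directions: after a meal it breaks glucose down, and in fasting or stress it builds glucose from lactate and amino acids. Most of the steps are shared by both directions, among them those of Gpi, Tpi1, Pgk1, Pgam1 and Eno1. Phosphofructokinase and pyruvate kinase run only toward pyruvate, and their liver forms, made by Pfkl and Pklr, are points where the direction is set. Pklr is known to respond to glucose through the factor ChREBP, which binds a paired, E-box-like carbohydrate response element in the promoter, while Ldha and several of the shared-step enzymes are known targets of the hypoxia factor HIF-1.

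The promoters of the genes that the results turn on are shown because the Burn-CLP signals of Pklr and Ldha lay below all other arrays while those of Tpi1 lay above them. For Tpi1 this held only with the main scaling of the arrays (quantile normalization) and not with the others given below. Each is 250 bases before to 50 after the gene's start, written 5′ to 3′ along the gene, from the RefSeq annotation of the rat genome build GRCr8. Of the 8 genes, 7 were matched in that table. Pklr lies at chr2:176841014-176841313 on the plus strand, Ldha at chr1:106507842-106508141 on the plus strand and Tpi1 at chr4:159305039-159305338 on the minus strand. Capitals mark the motifs found on either strand: the HIF response core (ACGTG or GCGTG), the E-box (CACGTG, counted as an E-box and not as a core) and the rat Pklr form of the carbohydrate response element, whose paired parts are separated by 5 free bases.
Pklr: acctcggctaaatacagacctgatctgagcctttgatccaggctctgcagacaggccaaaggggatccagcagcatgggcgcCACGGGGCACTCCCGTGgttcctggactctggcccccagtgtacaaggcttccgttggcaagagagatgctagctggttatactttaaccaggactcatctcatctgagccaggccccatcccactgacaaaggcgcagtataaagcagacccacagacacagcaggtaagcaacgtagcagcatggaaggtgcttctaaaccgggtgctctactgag
Ldha: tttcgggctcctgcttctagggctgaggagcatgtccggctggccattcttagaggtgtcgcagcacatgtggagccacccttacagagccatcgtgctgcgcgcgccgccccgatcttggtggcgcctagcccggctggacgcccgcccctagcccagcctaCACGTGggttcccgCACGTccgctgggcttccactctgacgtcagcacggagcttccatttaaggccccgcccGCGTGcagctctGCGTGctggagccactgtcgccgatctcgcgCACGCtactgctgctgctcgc
Tpi1: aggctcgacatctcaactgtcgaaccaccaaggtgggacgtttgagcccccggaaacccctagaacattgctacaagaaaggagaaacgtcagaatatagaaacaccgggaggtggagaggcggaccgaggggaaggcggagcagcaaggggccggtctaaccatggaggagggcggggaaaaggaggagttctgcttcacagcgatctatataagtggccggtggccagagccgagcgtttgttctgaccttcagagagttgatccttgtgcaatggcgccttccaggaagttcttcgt

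The Pklr window held the carbohydrate response element, starting at base 83 of the 300, and neither of the other motifs. This motif was added from knowledge of the gene after the values were seen, and its exact letters were found in 1 of 33469 rat promoter windows (0.00299%), that of Pklr itself, so its share says nothing of looser forms of the element. The Ldha window held 4 HIF response cores and 1 E-box, and the Tpi1 window held none of the 3 motifs. Of all windows, 38.5% held a HIF response core and 6.42% an E-box. The windows of Gpi, Pfkl, Pgam1 and Eno1 each held at least 1 HIF response core. A match is a description of the letters and does not show that a factor was bound.

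Levels are array signals after quantile normalization, on a linear scale with no unit. Signals under 64.3, the 20th percentile of all values, were treated as being at a floor. Differences are given as log2 changes ± the standard error (SE) of a limma fit over 13535 probe sets above the floor on at least 3 arrays, and a change was called at a Benjamini-Hochberg adjusted p under 0.05. Of the 11 probe sets, 10 were tested, and 1 of Pgk1 was at the floor on 8 of 9 arrays. Deposited array medians lay between 205 and 268.1. Sham-Sham 1 stood somewhat apart, with a mean correlation with the other arrays of 0.907, against 0.937 to 0.958 for the other 8 arrays. Hepatocyte markers (Alb, Ttr, Apoa1, Apoc3, Fgb and Serpina1) summed to 145534 to 155256 in Burn-CLP livers, 156175 to 162477 in Sham-CLP livers and 156555 to 157471 in Sham-Sham livers, so the labelled tissue showed its defining transcripts on every array. All Burn-CLP sums lay somewhat below those of both other groups, and the part of this in the glycolysis values was not tested.

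In Burn-CLP livers the last 2 enzymes of the pathway gave lower signals than in Sham-Sham livers, while the other 6 genes had log2 changes between -0.31 and 0.37. The Pklr signal was 2.45-fold lower and the Ldha signal 1.96-fold lower in Burn-CLP livers, and all 3 Burn-CLP arrays lay below the other 6 for both. Neither passed the test across the array: the adjusted p was 0.0762 for Pklr and 0.0672 for Ldha (limma). Tpi1, Gpi, Eno1 and Pgam1 had log2 changes between 0.26 and 0.37, with 95% intervals that include 0. In these bulk samples, fewer cells of a type and less RNA per cell cannot be told apart.

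**Figure D1:**
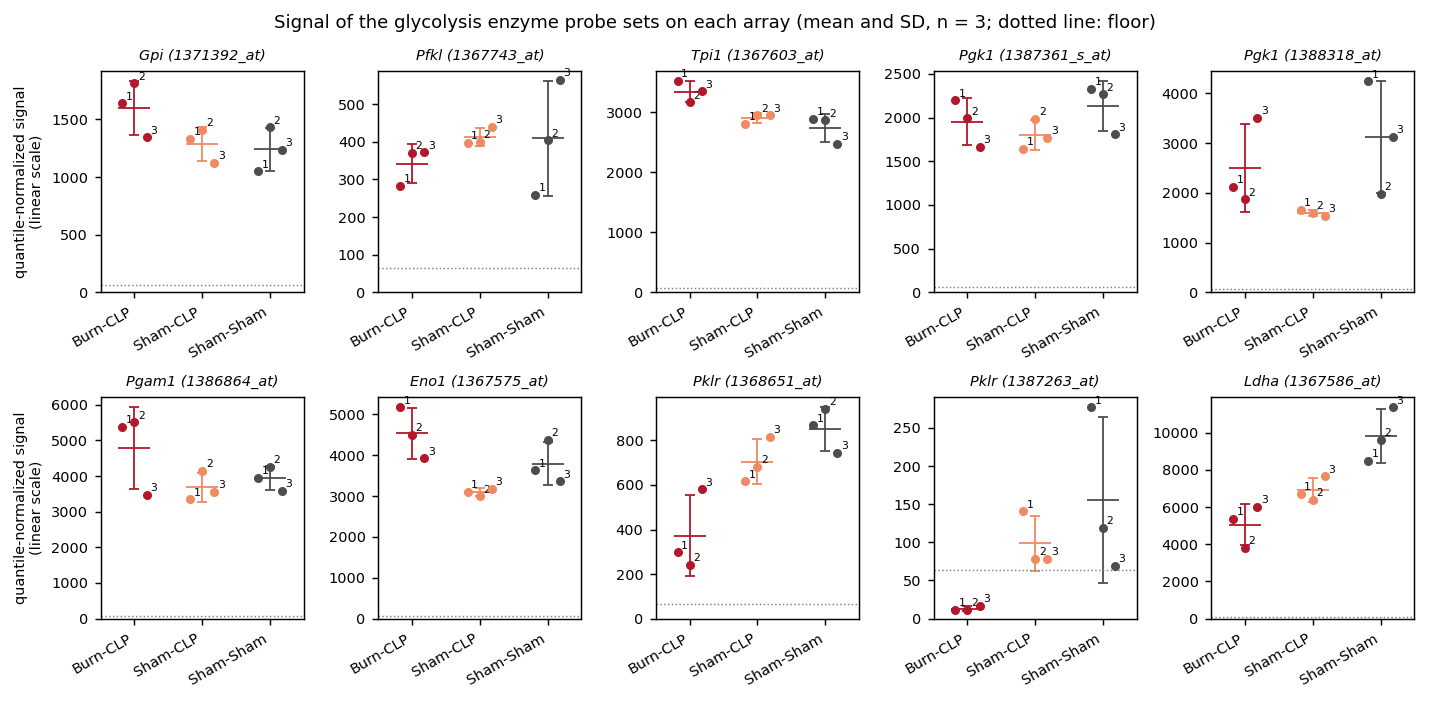
Quantile-normalized signal (linear scale, from 0) of the 10 tested probe sets of the 8 genes, with 1 point for each array, numbered as in the titles, for Burn-CLP, Sham-CLP and Sham-Sham livers. Horizontal bars are means, error bars are SD (n = 3) and the dotted line is the floor of 64.3. The 3 Burn-CLP arrays lie below all 6 others for both probe sets of Pklr and for Ldha, and above them for Tpi1.

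No probe set of the 8 genes was called in any of the 3 comparisons. Between Burn-CLP and Sham-Sham livers 0.746% of all tested probe sets were called, between Burn-CLP and Sham-CLP livers 0.0148%, and between Sham-CLP and Sham-Sham livers 0.0591%. At an unadjusted p under 0.05, 3 of the 10 probe sets differed between Burn-CLP and Sham-Sham livers (both of Pklr and that of Ldha), against 19.9% of all tested. One of these, Pklr 1387263_at, was at the floor on every Burn-CLP array and was tested only through the other groups. Between Burn-CLP and Sham-CLP livers 3 of 10 differed at that level (Eno1, Pklr 1368651_at and Ldha), against 9.09% of all. Between Sham-CLP and Sham-Sham livers 2 of 10 did (Pgk1 1388318_at and Ldha), against 11.7%. The smallest adjusted p of the 10 was 0.0672, 0.383 and 0.348 in these comparisons. A missed threshold with 3 arrays a group does not show that levels were equal.

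Gpi makes glucose-6-phosphate isomerase, which turns glucose 6-phosphate into fructose 6-phosphate. Its signals (probe set 1371392_at) were 1639.6, 1811 and 1346 in Burn-CLP livers, 1329.9, 1410.3 and 1121 in Sham-CLP livers, and 1050.2, 1429.6 and 1238 in Sham-Sham livers. The Burn-CLP arrays tended high, with Burn-CLP 3 within the range of both other groups. The log2 change was 0.37 ± 0.19 (95% interval -0.07 to 0.80, adjusted p = 0.316) in Burn-CLP against Sham-Sham livers, and 0.31 ± 0.19 (adjusted p = 0.689) against Sham-CLP livers. Sham-CLP livers differed from Sham-Sham livers by 0.06 ± 0.19 (adjusted p = 0.92), a sign that turned when Sham-CLP 2 or Sham-Sham 1 was left out.

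Pfkl makes the liver form of phosphofructokinase, which adds the next phosphate and commits the sugar to glycolysis. Its signals (1367743_at) were 283, 370.3 and 372 in Burn-CLP livers, 397, 400.5 and 439.9 in Sham-CLP livers, and 259, 404 and 564 in Sham-Sham livers. The Burn-CLP arrays lay just below the Sham-CLP arrays, which they overlapped with the deposited scaling, and the Sham-Sham arrays spread over the whole range of both. The log2 change was -0.28 ± 0.27 (adjusted p = 0.816) in Burn-CLP against Sham-CLP livers and -0.20 ± 0.27 (adjusted p = 0.705) against Sham-Sham livers. In Sham-CLP against Sham-Sham livers it was 0.08 ± 0.27 (adjusted p = 0.921), and it turned to -0.067 with the deposited scaling.

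Tpi1 makes triose-phosphate isomerase, which interconverts the 3-carbon sugars after the sugar is split. Its signals (1367603_at) were 3524, 3172 and 3352 in Burn-CLP livers, 2815, 2954 and 2954 in Sham-CLP livers, and 2897, 2868 and 2476 in Sham-Sham livers. All 3 Burn-CLP arrays were above the other 6, by a margin that was small beside the level. The log2 change was 0.29 ± 0.15 (95% interval -0.05 to 0.63, adjusted p = 0.318) against Sham-Sham livers and 0.20 ± 0.15 (adjusted p = 0.744) against Sham-CLP livers. With the deposited scaling the Burn-CLP signals of 3444.6, 3063.2 and 3364.4 overlapped those of Sham-CLP livers, at 2958.2, 3137.8 and 3055.6. With each array scaled to a common median the change against Sham-CLP livers was -0.050, so its direction there depended on the scaling.

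Pgk1 makes phosphoglycerate kinase, the first step that gives back ATP. Its 3 probe sets did not read alike. One (1368906_at) exceeded the floor on a single array, at 72.4 on Sham-Sham 1. The probe set 1387361_s_at gave 2197, 1991 and 1665 in Burn-CLP livers, 1639.6, 1986 and 1771 in Sham-CLP livers, and 2328, 2266 and 1806 in Sham-Sham livers, with all groups overlapping. Its log2 changes lay between -0.24 and 0.11, with adjusted p-values of 0.611 or more, and with scaling to a common median the sign turned in both comparisons that involve Sham-CLP livers.

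The third Pgk1 probe set, 1388318_at, varied far more between arrays. It gave 2119.8, 1874 and 3515 in Burn-CLP livers, 1656, 1595 and 1545 in Sham-CLP livers, and 4246, 1987 and 3129 in Sham-Sham livers. The Sham-CLP arrays were the lowest, close together and below all arrays of both other groups, which also held with the deposited scaling but not with scaling to a common median. The log2 change was -0.90 ± 0.31 (95% interval -1.59 to -0.21, unadjusted p = 0.0159, adjusted p = 0.348, limma) in Sham-CLP against Sham-Sham livers. In Burn-CLP against Sham-CLP livers it was 0.59 ± 0.31 (adjusted p = 0.606), and in Burn-CLP against Sham-Sham livers -0.31 ± 0.31 (adjusted p = 0.6).

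Pgam1 makes phosphoglycerate mutase, which moves the phosphate within the 3-carbon acid. Its signals (1386864_at) were 5379.7, 5509 and 3471 in Burn-CLP livers, 3352, 4150.1 and 3551 in Sham-CLP livers, and 3953, 4261 and 3594 in Sham-Sham livers. Burn-CLP 1 and Burn-CLP 2 were the 2 highest of the 9, and Burn-CLP 3 was the second lowest. The log2 change was 0.26 ± 0.21 (adjusted p = 0.52) against Sham-Sham livers and 0.35 ± 0.21 (adjusted p = 0.672) against Sham-CLP livers. In Sham-CLP against Sham-Sham livers it was -0.10 ± 0.21 (adjusted p = 0.876), and it turned to 0.065 with the deposited scaling and 0.28 with scaling to a common median.

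Eno1 makes alpha-enolase, which forms phosphoenolpyruvate. Its signals (1367575_at) were 5169, 4496 and 3927 in Burn-CLP livers, 3104, 2990.2 and 3179 in Sham-CLP livers, and 3628, 4375 and 3356 in Sham-Sham livers. With quantile normalization the Sham-CLP arrays were the 3 lowest, as for the variable Pgk1 probe set. With the deposited scaling Sham-Sham 1 (3263.1) lay below Sham-CLP 1 (3275.5) and Sham-CLP 3 (3290), so that order depended on the scaling. The log2 change was 0.54 ± 0.18 (95% interval 0.15 to 0.94, adjusted p = 0.433) in Burn-CLP against Sham-CLP livers and 0.26 ± 0.18 (adjusted p = 0.433) against Sham-Sham livers. In Sham-CLP against Sham-Sham livers it was -0.28 ± 0.18 (adjusted p = 0.543), and it turned to 0.070 when arrays were scaled to a common median.

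Pklr makes the pyruvate kinase of liver and, from another start of the gene, that of red blood cells. Its signals (1368651_at) were 297, 242 and 581 in Burn-CLP livers, 617, 681 and 817 in Sham-CLP livers, and 868, 941 and 745 in Sham-Sham livers. The 3 Burn-CLP arrays were the lowest, with Burn-CLP 3 well above the other 2 and just under the lowest Sham-CLP array, while Sham-CLP and Sham-Sham overlapped. The group means were 373 ± 182 in Burn-CLP, 705 ± 102 in Sham-CLP and 852 ± 99.2 in Sham-Sham livers (SD, n = 3).

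The Pklr log2 change was -1.29 ± 0.30 (95% interval -1.96 to -0.62, adjusted p = 0.0762) in Burn-CLP against Sham-Sham livers. Without Burn-CLP 3 it was -1.67 ± 0.21 and passed the test, with an adjusted p of 0.0161. Over all 17 alternatives it stayed negative, between -1.67 and -1.03, with adjusted p-values between 0.0161 and 0.239. In Burn-CLP against Sham-CLP livers it was -1.01 ± 0.30 (95% interval -1.69 to -0.34, adjusted p = 0.383), and in Sham-CLP against Sham-Sham livers -0.28 ± 0.30 (adjusted p = 0.729).

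The second Pklr probe set, 1387263_at, was dim. It gave 11.3, 11.8 and 16.6 in Burn-CLP livers, all at the floor, 141, 78 and 78.1 in Sham-CLP livers, and 277, 119 and 69.2 in Sham-Sham livers. Its signal was therefore at least 2.05-fold lower in Burn-CLP than in Sham-Sham livers (adjusted p = 0.238, limma), and at least 1.48-fold lower than in Sham-CLP livers (adjusted p = 0.762). The bound takes the floor as the Burn-CLP level. Without Sham-Sham 1 the adjusted p against Sham-Sham livers was 0.461 (limma).

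Red blood cell markers are given beside Pklr because that cell also uses the gene, and their part in the Pklr result was not tested. The 4 markers measured (Hbb, Hba-a3, Alas2 and Slc4a1) summed to 10026 to 12071 in Burn-CLP livers, 11609 to 12774 in Sham-CLP livers and 12886 to 16067 in Sham-Sham livers, a sum made mostly of Hbb, with Burn-CLP and Sham-CLP overlapping. None was called: Hbb had a log2 change of -0.42 ± 0.16 (adjusted p = 0.207) and Hba-a3 one of -0.61 ± 0.23 (adjusted p = 0.204) in Burn-CLP against Sham-Sham livers. Alas2 had -0.09 ± 0.20 (adjusted p = 0.824), and the 2 probe sets of Slc4a1 had 0.07 ± 0.19 (adjusted p = 0.868) and -0.17 ± 0.24 (adjusted p = 0.724), so 1 of the 4 genes lay above 0 and 3 below.

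Ldha makes the lactate dehydrogenase subunit that predominates in liver and skeletal muscle. Its signals (1367586_at) were 5354, 3821 and 6002 in Burn-CLP livers, 6705, 6407 and 7659 in Sham-CLP livers, and 8504, 9613 and 11361 in Sham-Sham livers. With quantile normalization the 3 groups did not overlap, with Burn-CLP lowest, Sham-CLP in the middle and Sham-Sham highest. With both other scalings Burn-CLP stayed below both groups, but Sham-CLP and Sham-Sham overlapped: in the deposited signals Sham-CLP 3 (8000.2) exceeded Sham-Sham 1 (7765.3). The group means were 5059 ± 1120 in Burn-CLP, 6923 ± 654 in Sham-CLP and 9826 ± 1441 in Sham-Sham livers (SD, n = 3).

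The Ldha log2 change was -0.97 ± 0.21 (95% interval -1.44 to -0.50, adjusted p = 0.0672) in Burn-CLP against Sham-Sham livers. It was -0.47 ± 0.21 (adjusted p = 0.548) in Burn-CLP against Sham-CLP livers and -0.50 ± 0.21 (adjusted p = 0.408) in Sham-CLP against Sham-Sham livers, where it was -0.33 with the deposited scaling and -0.12 (adjusted p = 0.84) with scaling to a common median. The middle position of Sham-CLP livers was thus not resolved by the test on either side, and limma's F test over the 3 groups (0.148% of all probe sets called) gave an adjusted p of 0.155 for Ldha and 0.158 for Pklr. Of 6 skeletal muscle markers, Myh4 was at the floor on all arrays, and the 6 summed to 598 to 754 in Burn-CLP livers, 554 to 632 in Sham-CLP livers and 724 to 988 in Sham-Sham livers, and their part in the Ldha result was not tested.

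**Figure D2:**
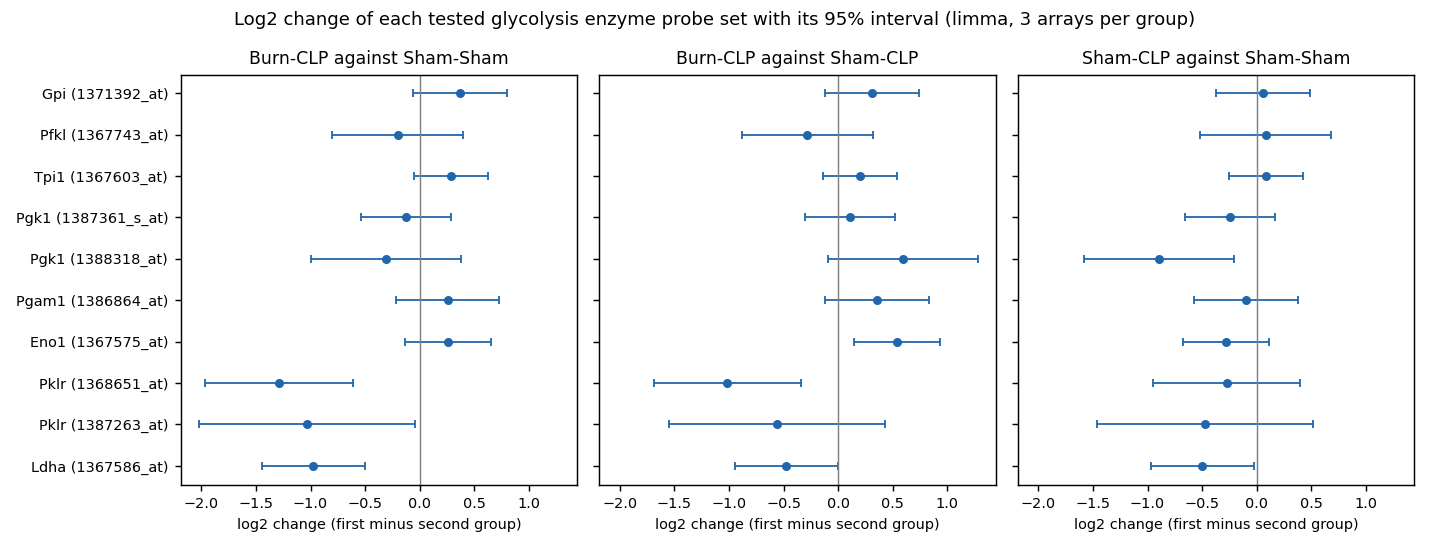
Log2 change (x axis, log2 units, with 95% intervals from limma) of the 10 tested probe sets of the 8 genes (y axis), in 1 panel for each comparison; each value is the first group in the panel's title minus the second. Pklr and Ldha lie left of 0 in all 3 panels, and the other genes lie between -0.31 and 0.37 in Burn-CLP against Sham-Sham livers.

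By direction, 1 probe set (Tpi1) lay above and 3 (both of Pklr and that of Ldha) lay below with no overlap in Burn-CLP against Sham-Sham livers, where 21.5% of all tested probe sets had no overlap, 11% higher and 10.5% lower. In Burn-CLP against Sham-CLP livers 7 of 10 had no overlap, 3 higher (Tpi1, Pgk1 and Eno1) and 4 lower (Pfkl, both of Pklr and Ldha), against 18.8% of all, 9.61% higher and 9.22% lower. With the deposited scaling this count was 5 of 10, against 23.1% of all, and with scaling to a common median 5 of 10, against 21.4%. Pgk1 in this paragraph is 1388318_at alone, as 1387361_s_at overlapped in all 3 comparisons under all 3 scalings. In Sham-CLP against Sham-Sham livers 3 of 10 lay lower (Pgk1, Eno1 and Ldha) and none higher, against 16.7% of all, 8.65% lower and 8.1% higher. That count turned with the scaling: with the deposited scaling 1 lay lower (Pgk1) and 1 higher (Tpi1), against 18.9% of all, and with scaling to a common median 0 lay lower and 2 higher (Tpi1 and Pgam1), against 19.9%. Both probe sets of Pklr and that of Ldha lay below all 6 other arrays under all 3 scalings, as 3.86% of all tested probe sets did with quantile normalization. With quantile normalization alone Tpi1 lay above all 6, as 4.06% of all did. Pklr 1387263_at was at the floor on all 3 Burn-CLP arrays, so it was tested only through the other groups. Its place in these counts is no separate support for Pklr.

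Taking the brightest probe set of each gene, the median log2 change of the 8 genes was 0.03 in Burn-CLP against Sham-Sham livers, with 4 above and 4 below 0, and 0.00 over all 9339 genes. In Burn-CLP against Sham-CLP livers it was 0.26, with 5 above and 3 below 0, against 0.02 over all genes. In Sham-CLP against Sham-Sham livers it was -0.19, with 3 above and 5 below 0, against 0.00 over all genes. The last 2 medians depended on the scaling: with arrays scaled to a common median they were 0.022 and 0.11, where the median of all genes was -0.04 and 0.12.

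The 8 genes did not vary as 1 block across the 9 arrays. Of 28 pairs of genes, 12 had a Pearson correlation above 0 and 16 one below 0, with a median of -0.13, over 9 arrays that fall into 3 groups and share array-wide scaling. Burn-CLP 3 was the Burn-CLP array nearest to the Sham-Sham mean for 7 of the 8 genes, all but Tpi1. Among all genes it was nearest for 39.4%, against 36% for Burn-CLP 1 and 24.6% for Burn-CLP 2.

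The rest of the pathway was followed through 20 further genes, the other isozymes and steps, of which 11 were tested and 2 were called, both in Burn-CLP against Sham-Sham livers, where 0.746% of all tested probe sets were called. Aldoa rose and Ldhd fell. The median log2 change of the 11 genes was -0.23 in that comparison, -0.04 in Burn-CLP against Sham-CLP livers and -0.24 in Sham-CLP against Sham-Sham livers. Over all genes tested these medians were 0.00, 0.02 and 0.00. Hk3, Hkdc1, Gapdh and Pkm were not analysed here, and Pgam2, Eno3 and Aldoc were at or near the floor and not tested.

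Aldoa makes the aldolase best known from muscle, which splits the 6-carbon sugar. Its signals (1367617_at) were 4545, 5255 and 3126 in Burn-CLP livers, 1918, 1924 and 1915 in Sham-CLP livers, and 1955, 1931 and 1886 in Sham-Sham livers. Every Burn-CLP array stood far above the other 6, which were nearly equal with quantile normalization. With scaling to a common median the Sham-CLP arrays lay above the Sham-Sham arrays without overlap, and the Burn-CLP arrays stayed above both. The signal rose 2.19-fold in Burn-CLP against Sham-Sham livers, a log2 change of 1.13 ± 0.20 (adjusted p = 0.0426, limma). Against Sham-CLP livers the log2 change was also 1.13 ± 0.20 but did not pass (adjusted p = 0.178), and Sham-CLP differed from Sham-Sham livers by -0.00 ± 0.20.

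The Aldoa call was close to the threshold: it held in 6 of 17 alternatives, with adjusted p-values between 0.0106 and 0.143, and its log2 change lay between 0.97 and 1.34 in all of them. It was lost when any 1 array was left out except Burn-CLP 3 and Sham-Sham 3, for example without Burn-CLP 2 (adjusted p = 0.14) or without Sham-CLP 3 (adjusted p = 0.0619). It was also lost when arrays were scaled to a common median (adjusted p = 0.0532). Aldoa and Ldhd were followed through the alternatives because they had passed.

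Ldhd makes the mitochondrial dehydrogenase of D-lactate, a different enzyme from the L-lactate dehydrogenases despite its symbol. Its probe set 1376746_at gave 25.3, 27.5 and 81 in Burn-CLP livers, 125, 182 and 149.8 in Sham-CLP livers, and 368, 186 and 231 in Sham-Sham livers. The Burn-CLP arrays were lowest, with 2 of the 3 at the floor, so the fold understates the change. The signal fell 3.61-fold in Burn-CLP against Sham-Sham livers, a log2 change of -1.85 ± 0.27 (adjusted p = 0.0234, limma). The call held in 12 of 16 alternatives. Among the 4 in which it was lost were the fits without Burn-CLP 1 (adjusted p = 0.0863), without Burn-CLP 2 (adjusted p = 0.105) and of only the 2 groups (adjusted p = 0.0852).

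A second Ldhd probe set, 1382061_at, was brighter and went the same way without passing. It gave 295, 218 and 394 in Burn-CLP livers, 449.8, 509 and 527 in Sham-CLP livers, and 656, 530.2 and 650.5 in Sham-Sham livers, with the 3 groups in that order and none overlapping, except that Sham-CLP and Sham-Sham overlapped with scaling to a common median. Its log2 change was -1.05 ± 0.23 (adjusted p = 0.0659) in Burn-CLP against Sham-Sham livers.

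Isozymes of the same steps were not called. Pfkp, the platelet form of phosphofructokinase, gave 202, 214 and 180.1 in Burn-CLP livers, 217, 245 and 213 in Sham-CLP livers, and 291, 291 and 321 in Sham-Sham livers, where the Sham-Sham arrays were the 3 highest. Its log2 change was -0.60 ± 0.16 (adjusted p = 0.0978) in Burn-CLP against Sham-Sham livers. The muscle form Pfkm had -0.23 ± 0.20 (adjusted p = 0.536), the enolase Eno2 -0.52 ± 0.27 (adjusted p = 0.309), the lactate dehydrogenase subunit Ldhb 0.29 ± 0.21 (adjusted p = 0.468) and the testis form Ldhc -0.60 ± 0.26 (adjusted p = 0.243). Adpgk, which phosphorylates glucose with ADP, had 0.40 ± 0.16 (adjusted p = 0.22).

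**Figure D3:**
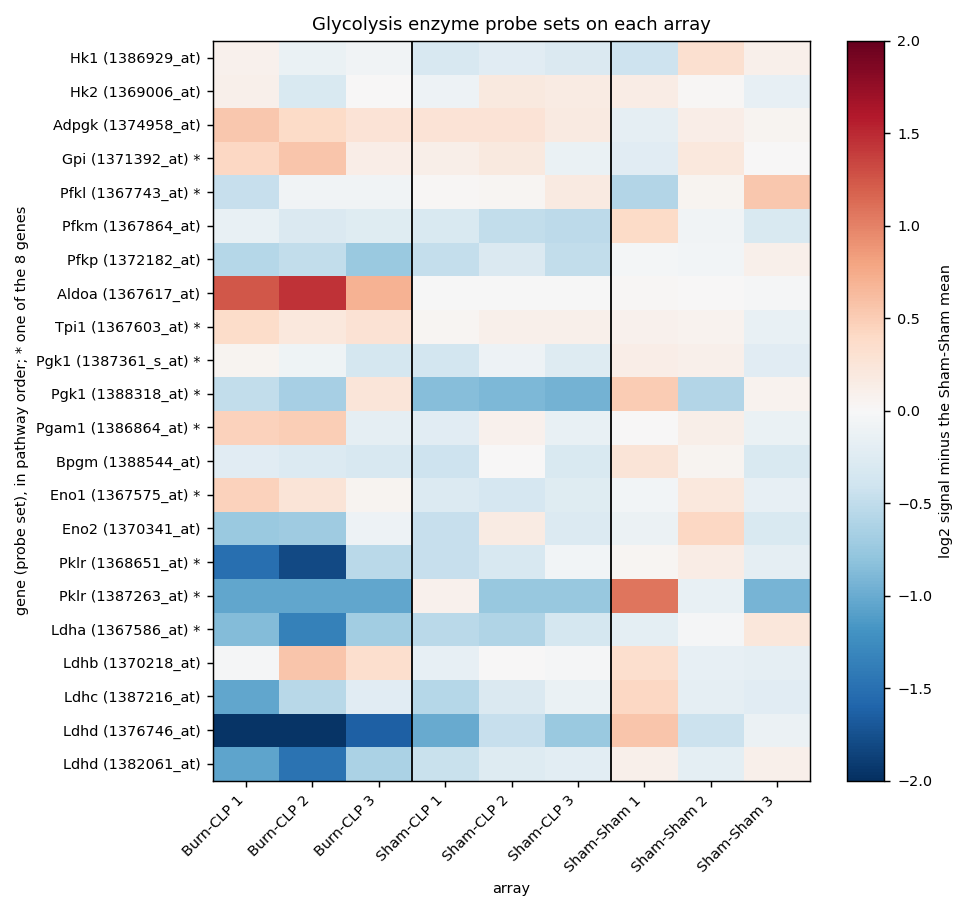
Log2 signal on each array (columns, Burn-CLP, Sham-CLP and Sham-Sham from left to right) minus the Sham-Sham mean, for the tested glycolysis probe sets in pathway order (rows, the 8 genes marked with an asterisk); red is above and blue below the Sham-Sham mean, on a scale from -2 to 2. Aldoa is red on the 3 Burn-CLP arrays alone, and Pklr, Ldha and Ldhd are darkest blue there.

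Genes that feed or steer the pathway were tested for 28 of 30 listed, and none was called in any comparison. At an unadjusted p under 0.05 (limma), 12 of their 37 probe sets differed between Burn-CLP and Sham-Sham livers, 5 between Burn-CLP and Sham-CLP livers and 6 between Sham-CLP and Sham-Sham livers, against 19.9%, 9.09% and 11.7% of all tested probe sets. Pfkfb1, the liver enzyme that makes and removes the phosphofructokinase activator fructose 2,6-bisphosphate, gave 1655, 1991 and 2037 in Burn-CLP livers, 1593, 1603 and 1316 in Sham-CLP livers, and 1069, 953 and 574 in Sham-Sham livers. The groups were ordered without overlap, with Burn-CLP highest, although Burn-CLP and Sham-CLP overlapped with both other scalings. Its log2 change was 1.17 ± 0.24 (adjusted p = 0.06) in Burn-CLP against Sham-Sham livers and 0.84 ± 0.24 (adjusted p = 0.306) in Sham-CLP against Sham-Sham livers.

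Slc2a1, the glucose transporter GLUT1, gave 342, 541 and 359 in Burn-CLP livers, 311, 363 and 316 in Sham-CLP livers, and 187, 210.3 and 214 in Sham-Sham livers. The Sham-Sham arrays were the 3 lowest. Its log2 change was 0.99 ± 0.20 (adjusted p = 0.06) in Burn-CLP and 0.69 ± 0.20 (adjusted p = 0.306) in Sham-CLP livers, each against Sham-Sham livers. Gckr, a regulatory protein of the first step of liver glucose use, gave 972, 752 and 1705 in Burn-CLP livers, 1737, 1702 and 2355 in Sham-CLP livers, and 2462, 2481 and 2517 in Sham-Sham livers. As for Pklr, Burn-CLP 3 stood above the other 2 Burn-CLP arrays, and the Gckr log2 change was -1.21 ± 0.28 (adjusted p = 0.0762) against Sham-Sham livers.

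The 4 probe sets of Pfkfb2 disagreed, with log2 changes between -0.40 and 0.51 in Burn-CLP against Sham-Sham livers. Mlxipl, which makes ChREBP and was named for its known role at Pklr after its values were seen, had a log2 change of -0.44 ± 0.22 (adjusted p = 0.287) in that comparison. The 1 tested probe set of Hif1a, named likewise, had 0.14 ± 0.15 (adjusted p = 0.629).

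Enzymes of the opposing direction, the steps particular to gluconeogenesis, were tested for 6 of 7 genes and none was called, with 1 of 7 probe sets at an unadjusted p under 0.05 (limma) in Burn-CLP against Sham-Sham livers, 0 in Burn-CLP against Sham-CLP livers and 2 in Sham-CLP against Sham-Sham livers. Of all tested probe sets, 19.9%, 9.09% and 11.7% passed that level in these comparisons. Fbp1, fructose bisphosphatase, reverses the step of Pfkl. It gave 13515, 13050.5 and 12068 in Burn-CLP livers, 10779.6, 10338 and 11254 in Sham-CLP livers, and 10779.6, 12615 and 12068 in Sham-Sham livers. Burn-CLP lay above Sham-CLP without overlap, though not with the other scalings, and the log2 change was 0.25 ± 0.15 (adjusted p = 0.671) there and 0.13 ± 0.15 (adjusted p = 0.673) against Sham-Sham livers. Slc37a4, the glucose 6-phosphate transporter, had 0.30 ± 0.16 (adjusted p = 0.339) in Burn-CLP against Sham-Sham livers. Fbp2, the muscle form, had -0.64 ± 0.26 (adjusted p = 0.217) with 2 Burn-CLP arrays at the floor. The 2 probe sets of Pck2, the mitochondrial phosphoenolpyruvate carboxykinase, had -0.86 ± 0.44 (adjusted p = 0.302) and -0.32.

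HIF-1 targets outside glycolysis were tested for 15 of 19 genes, and none was called, with 8 of 22 probe sets at an unadjusted p under 0.05 (limma) in Burn-CLP against Sham-Sham livers, 1 in Burn-CLP against Sham-CLP livers and 2 in Sham-CLP against Sham-Sham livers, beside the same 19.9%, 9.09% and 11.7% of all. By the brightest probe set of each gene, their median log2 change was 0.27 in Burn-CLP against Sham-Sham livers, with 12 genes above and 3 below 0. It was 0.09 in Burn-CLP against Sham-CLP livers and 0.05 in Sham-CLP against Sham-Sham livers, each with 9 genes above and 6 below 0. Over all genes tested these medians were 0.00, 0.02 and 0.00, and the quartiles in Burn-CLP against Sham-Sham livers were -0.29 and 0.29. Bnip3, a mitochondrial protein of mitophagy, gave 5713, 6934 and 3450.0 in Burn-CLP livers, 2859.5, 2723 and 1993 in Sham-CLP livers, and 1400.5, 2177 and 1948 in Sham-Sham livers. Every Burn-CLP array was above the other 6, with a log2 change of 1.51 ± 0.29 (adjusted p = 0.0535) against Sham-Sham livers. Ddit4, an inhibitor of mTORC1, gave 584, 3355 and 365 in Burn-CLP livers, 387, 422 and 189.6 in Sham-CLP livers, and 33.4, 233 and 115 in Sham-Sham livers, the first of these at the floor. Burn-CLP 2 stood far above all other arrays and Burn-CLP 3 lay within the Sham-CLP range, and the log2 change was 2.90 ± 0.77 (adjusted p = 0.102) against Sham-Sham livers. The probe sets disagreed for Mxi1 (-1.10 ± 0.21, adjusted p = 0.0508, and 0.08) and for P4ha2 (-0.79 ± 0.23, adjusted p = 0.132, and 0.01). For both genes the brighter probe set, used in the median, was the one near 0.

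Among markers of other cells, S100a9 and Dcn passed the test, both in Burn-CLP against Sham-Sham livers, and the part of these cells in the pathway's values was not tested. Neutrophil markers summed to 603 to 1420.1 in Burn-CLP livers, 408 to 577 in Sham-CLP livers and 338 to 488 in Sham-Sham livers, and S100a9 rose in Burn-CLP against Sham-Sham livers (log2 change 2.80 ± 0.40, adjusted p = 0.0239). The other neutrophil markers tested did not pass there: S100a8 had 1.10 ± 0.42 (adjusted p = 0.2), Cxcr2 0.07 ± 0.31 (adjusted p = 0.925) and Mmp8 -0.46 ± 0.29 (adjusted p = 0.404). Macrophage markers summed to 8609 to 12491 in Burn-CLP livers, 7612 to 9716 in Sham-CLP livers and 7753 to 8308 in Sham-Sham livers, with Burn-CLP and Sham-CLP overlapping and no macrophage marker called. Stellate cell and fibroblast markers summed to 3712 to 5128 in Burn-CLP livers, 3552 to 5296 in Sham-CLP livers and 5047 to 5711 in Sham-Sham livers, with overlap between all groups' ranges, and of these Dcn rose (1.48 ± 0.21, adjusted p = 0.0239) while Col3a1 had -0.48 ± 0.22 (adjusted p = 0.261). No other marker was called, among those of lymphocytes, endothelium, bile duct and exocrine pancreas included.

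**Figure D4:**
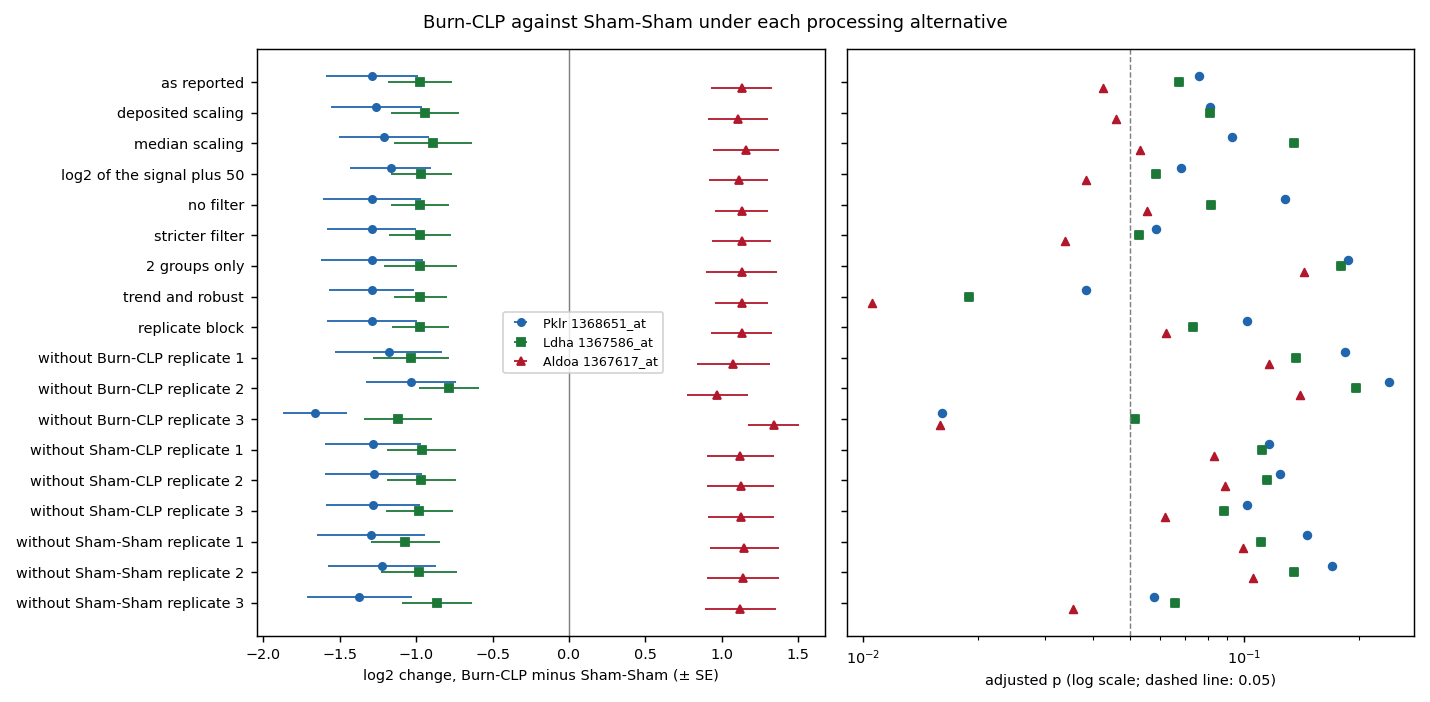
Burn-CLP against Sham-Sham livers under each way of processing (y axis): log2 change with SE (left, log2 units) and limma's adjusted p (right, log scale, dashed line at 0.05) for Pklr 1368651_at, Ldha 1367586_at and Aldoa 1367617_at. The Pklr and Ldha changes stay below 0 and the Aldoa change above 0 throughout, while the adjusted p of all 3 lies on both sides of 0.05.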

How the data were processed

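Whole-liver RNA was measured on 9 one-colour oligonucleotide arrays. The authors deposited 1 intensity per probe set and array on a linear scale, with arrays already brought to a common level: the mean after trimming 2% at each end was 500.1 to 500.2 on all 9. The sources used here do not state how these intensities were made from the scans, and arrays have no read depth, so their number limits the precision. Symbols came from the platform annotation: 12783 probe sets had 1 symbol, 312 several and 2771 none, and those with several were not named. Members of gene families may cross-hybridize.

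Intensities were quantile normalized, floored at their 20th percentile (64.3) and put on the log2 scale. Probe sets above the floor on at least 3 of 9 arrays (13535) were fitted with limma 3.58.1 (lmFit and eBayes) in R 4.3.3, with all 3 groups in 1 fit and no covariate, and p-values were adjusted by Benjamini-Hochberg over all of them. The fit was tested on simulated data. The 57 control probe sets were left out. Other genes were named if called, if an isozyme of the same step, or if among the 4 smallest F-test p-values of their list; the named exceptions are stated. The genes and lists were chosen with earlier results of these data known. Alternatives covered scaling, floor, filter, variance model, samples in the fit, the probe set per gene, a replicate block and each array left out. Same-numbered arrays of different groups correlated between -0.03 and 0.08 in their deviations, so the numbers were not taken to pair samples.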

Additional observations from a re-analysis of the deposited data

How the results depend on the processing

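Of 507 values of the 8 genes' probe sets over 17 alternatives, 492 kept their direction and their side of the threshold, 3 newly passed and 12 changed sign, none of these 12 called either way. Pklr (-1.29; -1.67 without Burn-CLP 3, adjusted p = 0.0161) and Ldha newly passed in Burn-CLP against Sham-Sham livers; with an intensity trend and robust moderation both did (2 called, adjusted p = 0.0383 and 0.0189). The count was 0 to 1 with single arrays left out and 0 with the other alternatives. In Sham-CLP against Sham-Sham livers the log2 change turned to -0.067 for Pfkl and 0.065 for Pgam1 with the deposited scaling, and to 0.029 for Pgk1 1387361_s_at, 0.28 for Pgam1 and 0.070 for Eno1 with scaling to a common median. With arrays left out it ran from -0.055 (without Sham-Sham 1) to 0.17 for Gpi, which also turned (-0.01) without Sham-CLP 2, from -0.22 (without Sham-Sham 1) to 0.35 for Pfkl, and from -0.94 to 0.067 (without Sham-Sham 1) for Pklr 1387263_at. In Burn-CLP against Sham-Sham livers Pfkl ran from -0.50 to 0.068 (without Sham-Sham 3), and in Burn-CLP against Sham-CLP livers scaling to a common median gave -0.050 for Tpi1 and -0.11 for Pgk1 1387361_s_at. Median changes of the 8 genes were 0.0067 to 0.12 (Burn-CLP against Sham-Sham, single arrays left out). They were 0.18 with the deposited scaling, 0.022 with a common median and 0.21 to 0.29 with arrays left out (Burn-CLP against Sham-CLP). They were -0.10, 0.11 and -0.26 to -0.11 in Sham-CLP against Sham-Sham livers. The median of all genes moved with the scaling too. In Burn-CLP against Sham-CLP livers it was 0.02 as reported, 0.10 with the deposited scaling and -0.04 with a common median. In Sham-CLP against Sham-Sham livers it was 0.00, -0.07 and 0.12. The 8 genes' median minus that of all genes was 0.24, 0.08 and 0.07 in the former comparison. In the latter it was -0.19, -0.03 and -0.02. The cause of these shifts was not tested.

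Over all probe sets, the 101 calls in Burn-CLP against Sham-Sham livers (44 higher, 57 lower) became 13 in a fit of the 2 groups, 317 with trend and robust moderation, 19 to 645 with arrays left out (645 without Sham-Sham 3), and 70 (39 higher, 31 lower) with a common median. The 2 in Burn-CLP against Sham-CLP livers (both higher) became 1 with the deposited scaling, 3 (2 higher, 1 lower) with a common median, 0 with log2 of the signal plus 50, with the stricter filter or with 2 groups, 4 with no filter, 10 with trend and robust moderation and 0 to 36 with arrays left out (36 without Burn-CLP 3). The 8 in Sham-CLP against Sham-Sham livers (6 higher, 2 lower) became 4 (4 higher, 0 lower) with the deposited scaling and 4 to 347 with arrays left out (347 without Sham-Sham 3). With the number in the titles as a replicate block the counts were 59, 0 and 4, no call of the 8 genes changed, and Aldoa (adjusted p = 0.0621) and Ldhd (0.0534) were not called. The stricter filter left Pklr 1387263_at and Ldhd 1376746_at untested. Signals at the floor carry no order.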

Other observations

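Tested probe sets with 1 symbol, other than those of the 8 glycolysis genes, were ranked by their likeness to these genes. The measure was the Pearson correlation over 9 arrays with the mean of the 8 genes' centred and scaled log2 signals. The 5 highest were Cep120 (r = 0.945, rho = 0.917), Thrap3 (r = 0.909, rho = 0.917), Rapgef2 (r = 0.905, rho = 0.8), Mogs (r = 0.894, rho = 0.917) and Xrn1 (r = 0.893, rho = 0.8). They are a description of these arrays, which fall into 3 groups and share array-wide scaling, and were picked as the highest of all. The averaged profile, taken with quantile normalization, was lowest on the 3 Sham-CLP arrays, unlike Pklr and Ldha, which were lowest on the Burn-CLP arrays. The median change of the 8 genes in Sham-CLP against Sham-Sham livers went from -0.19 to 0.11 with scaling to a common median. That of all genes went from 0.00 to 0.12. Cep120, a centrosomal protein, gave 339, 282 and 312 in Burn-CLP livers, 231, 260.2 and 237 in Sham-CLP livers, and 283, 337 and 274 in Sham-Sham livers.

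Gapdh, the glycolytic dehydrogenase between Tpi1 and Pgk1, was on the array as control probe sets, which were kept out of the tests. The one at the 3′ end gave 10084.7, 7292 and 10244 in Burn-CLP livers, 8944, 9054 and 10676 in Sham-CLP livers, and 8968, 8789 and 8310.4 in Sham-Sham livers, with overlapping groups and the lowest of all 9 signals on Burn-CLP 2. The middle one was also lowest on Burn-CLP 2, at 5899. The one at the 5′ end differed: it was lowest on Sham-CLP 1, at 6277. Its group means were 8653 in Burn-CLP, 7535 in Sham-CLP and 7472 in Sham-Sham livers, again with overlapping groups.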
